A study of Mus musculus with 6 samples.

Results

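The genes described here are those by which a cell detects foreign or unedited RNA in its cytosol and answers with interferon, measured in mouse embryonic stem cells with and without the RNA helicase Ddx5. Members were chosen by name: 9 gene symbols were looked up in the authors' expression table of 10989 genes, and 7 of them had a row there. These 7 are Ddx58, Mavs, Tbk1, Irf3, Eif2ak2, Adar and Bst2. The other 2, Ifih1 and Isg15, are not analysed here.

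The knockout cells were 4 Ddx5 knockout (KO) lines, labelled as lines 1 to 4 and each grown from a single clone after a Cas9 nickase with paired guide RNAs had cut the second exon of Ddx5. The controls were 2 wild-type (WT) libraries of the parental MPI-II line, labelled as replicates 1 and 2. All cells were at passages 13 to 18 and shared their culture: a feeder layer, fetal bovine serum, LIF (leukemia inhibitory factor), PD0325901 against MEK and a compound written as CH99021 against GSK3. The KO cells had in addition gone through transfection and G418 selection, which the labels do not describe for WT. No label says that the 2 WT libraries came from separate cultures, so the p-values below measure the spread between these libraries.

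In the pathway studied here, the helicases encoded by Ddx58 (RIG-I) and Ifih1 (MDA5) bind RNA with viral features, Mavs passes the signal on from the mitochondrial surface, and the kinase Tbk1 activates the transcription factor Irf3, which switches on type I interferon. Interferon then acts through its receptor and STAT proteins to raise a large set of interferon-stimulated genes, among them Ddx58, Eif2ak2, Adar, Isg15 and Bst2 themselves. Pluripotent stem cells are known for a weak interferon response and for low levels of several of these genes.

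Values are whole-number normalized expression scores, given in deposited units. The authors named them CPM, but each library summed to between 14612799 and 14722877 units, so they were treated as a score with no fixed unit, and the sequencing depth is unknown. For testing, values were divided by 14.7, a pseudocount of 1 was added, and log2 was taken. Log2 fold changes are KO over WT on that scale. The comparison of KO with WT was fitted with limma over the whole table, and genes with a Benjamini-Hochberg adjusted p below 0.05 were called. As a check of the labels, the level of Ddx5 was 5854, 8450, 12793 and 5659 units in KO lines 1 to 4, against 36433 and 36436 units in the WT libraries (log2 -2.23, SE 0.317, adjusted p = 0.00807, limma). Near that WT level the scale is compressed, with Fn1 at 36452 units in every library but WT replicate 2. The closeness of the 2 WT values of Ddx5 and the size of its fall carry that limit. WT replicate 2 stood apart, with 131 genes at 0 units against 13 to 19 in the other 5 libraries. Of the embryonic stem cell markers, all 10 were measured, 1 was called higher and 1 lower, and none was at 0 in any library. The shares over all genes were 9.75% called higher and 7.34% called lower.

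Ddx58, the RNA sensor at the head of the pathway, was lower in every KO line, and Mavs, the adaptor directly below it, was modestly higher. The remaining 5 members did not pass the test. Of the 7 members, 1 was called higher and 1 lower, a share of 28.6%, against 17.1% of all genes called in either direction, 9.75% higher and 7.34% lower. With only 7 members, a share of this size rests on 2 genes. The KO and WT libraries did not overlap for 2 members and overlapped for 5, against 43.7% of all genes without overlap. The median log2 fold change was -0.19 over the 7 members and 0.04 over all genes.

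**Figure D1:**
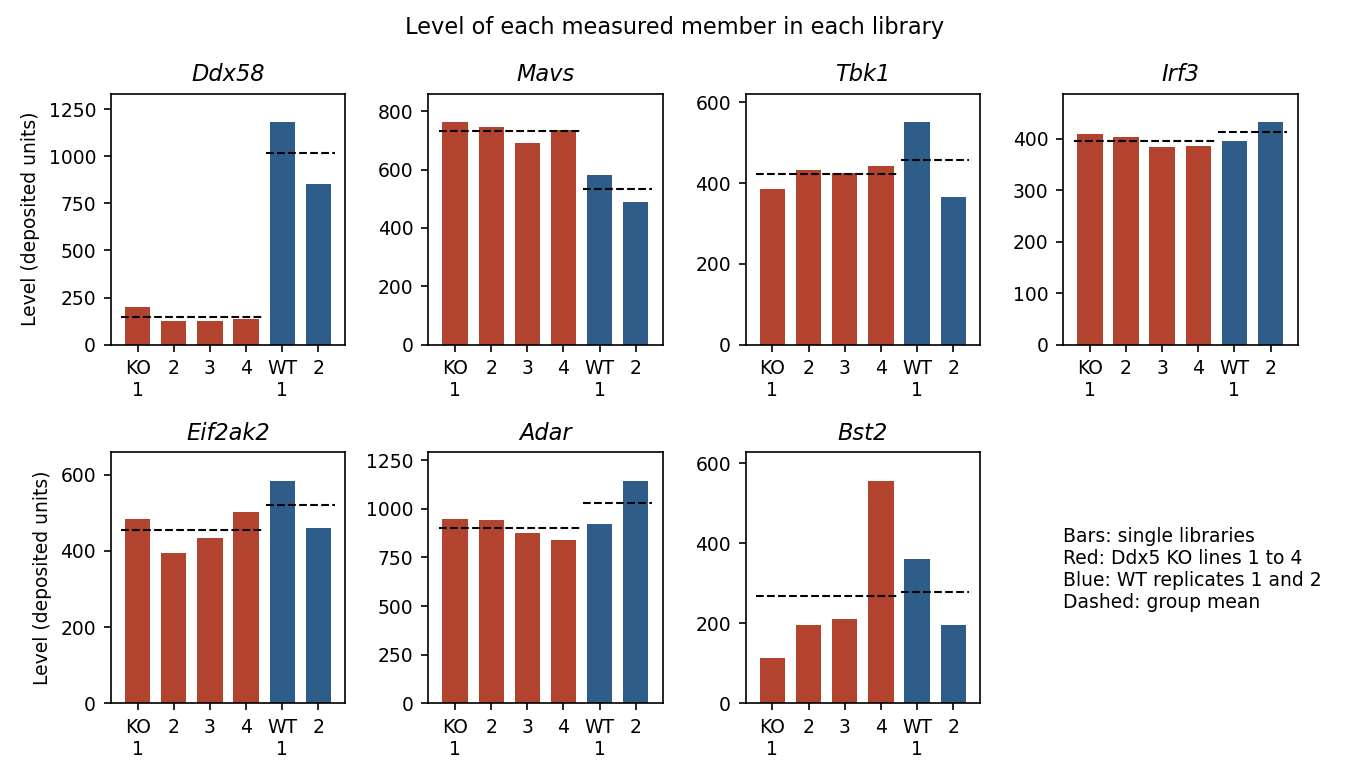
Level of each measured member in deposited units (linear axis from 0), one bar per library, with the 4 KO lines in red left of the 2 WT replicates in blue and dashed lines at the group means. Ddx58 stands at 123 to 200 units in the KO lines and at 851 and 1180 units in WT, while the bars of Tbk1, Irf3, Eif2ak2, Adar and Bst2 overlap between the groups.

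Ddx58 encodes RIG-I, a helicase that recognises short double-stranded RNA with a triphosphate end. The gene (ENSMUSG00000040296) lies on chromosome 4, 40203773 to 40239828, on the minus strand of build mm10. KO lines 1 to 4 held 200, 123, 128 and 134 units, against 1180 and 851 units in the WT libraries. Every KO line lay below both WT libraries, and line 1 was the highest of the 4. The means were 146 ± 36.1 units in KO (SD, n = 4) and 1016 ± 233 units in WT (SD, n = 2), so that the level was 6.94-fold lower in KO. The log2 fold change was -2.68 (SE 0.230, 95% interval -3.23 to -2.14, adjusted p = 0.00271, limma). Sorted from the lowest log2 fold change, Ddx58 was number 67 of 10989 genes. The exact two-sided permutation test of this gene alone gave p = 0.0667, the smallest that 15 ways of splitting 6 libraries into 4 and 2 allow, so this design cannot pass 0.05 for any single gene. With each library dropped in turn the call held 6 times of 6, with log2 fold changes of -2.92 to -2.45 and adjusted p up to 0.0148. In 2 of these fits a single WT library was left, so the spread came from the KO lines alone and the lone WT library was assumed to vary like them, as in every fit below without a WT replicate.

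Markers of feeder fibroblasts fell along with Ddx58. Of the 20 measured marker genes of this list, 18 were called lower, none higher and 2 did not pass, with a median log2 fold change of -2.72. Their mean log2 level was 4.37, 3.67, 4.14 and 3.95 in KO lines 1 to 4, against 7.25 and 6.50 in the WT libraries. The summed level was 43199 to 47005 units in the KO lines, against 66749 and 99404 units in WT, and includes Fn1, which sat at 36452 units in 5 of the 6 libraries. No measured marker was at 0 in any library, and Pdgfra, Lum and Twist1 were not used here. Within WT, Ddx58 was 1.39-fold higher in replicate 1 than in replicate 2, and the feeder markers were a median of 1.63-fold higher. Within KO, line 1 was the highest for both Ddx58 and the feeder mean, and line 2 the lowest for both. Lines 3 and 4 stood in opposite order, with Ddx58 at 128 and 134 units and the feeder mean at 4.14 and 3.95. The part of feeder cells in the fall of Ddx58 was not tested, and in such bulk libraries fewer cells of a type and less RNA per cell cannot be told apart.

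**Figure D2:**
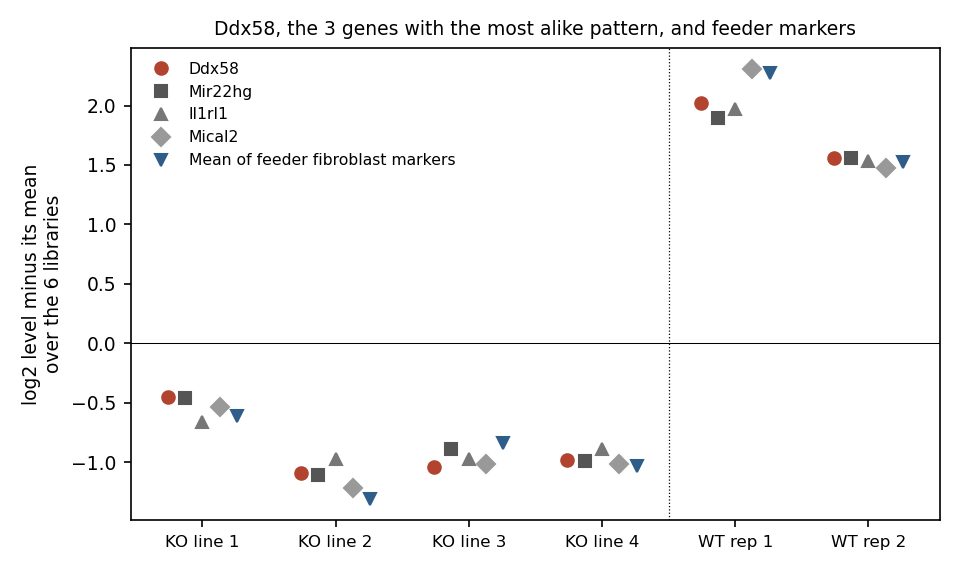
Log2 level of Ddx58, of the 3 genes with the most alike pattern and of the mean over 20 feeder fibroblast markers, each minus its own mean over the 6 libraries (y axis), in KO lines 1 to 4 and WT replicates 1 and 2 (x axis). All 5 sets of points lie below 0 in the KO lines and above 0 in WT, with Ddx58 at -1.10 to -0.45 in KO and at 2.02 and 1.56 in WT.

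The 3 genes whose pattern was most like that of Ddx58 were Mir22hg, Il1rl1 and Mical2. Likeness was measured as the root mean square difference over the 6 libraries between log2 levels, each taken relative to the gene's own mean, and came to 0.0818, 0.112 and 0.136. Mir22hg, the host transcript of the microRNA miR-22, stood at 24, 10, 14 and 12 units in the KO lines against 183 and 142 units in WT. Il1rl1, the receptor for interleukin-33, stood at 6, 2, 2 and 3 units in the KO lines against 114 and 80 units in WT. Mical2 stood at 28, 12, 16 and 16 units in the KO lines against 292 and 158 units in WT. In the KO lines all 3 lay near or below the 14.7 units that the pseudocount equals, which shrinks log2 differences. In deposited units each fell by a larger factor than Ddx58, so the likeness is one of shrunken log2 levels. The 3 lie on chromosomes 11, 1 and 7, away from Ddx58.

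Around Ddx58 on chromosome 4, the fall was not shared by all neighbours. Aco1, which encodes the cytosolic aconitase and lies 5.44 kb away (40143081 to 40198338), stood at 1329, 1392, 1227 and 1457 units in the KO lines against 1202 and 952 units in WT, and did not pass (log2 0.33, adjusted p = 0.112, limma). On the other side, at 19.8 kb, Topors (40259601 to 40269850), a ubiquitin and SUMO ligase, was called lower. It stood at 2080, 1931, 1931 and 1642 units in the KO lines against 4024 and 3465 units in WT (log2 -0.98, adjusted p = 0.00632, limma). Ndufb6, 30.8 kb away, did not pass (log2 -0.23, adjusted p = 0.319, limma). These neighbours were looked up after the fall of Ddx58 had been seen.

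Promoter sequence was read for the members because Ddx58, Eif2ak2, Adar and Bst2 are known interferon-stimulated genes, of which Ddx58 alone was called. RefSeq's promoter windows (build GRCm38.p6, 250 bases before to 50 after each start site) matched all 7 measured members. They were searched on both strands for the core of the interferon-stimulated response element, written GAAANNGAAA, where N is any base. It occurred in the windows of 3 members and in none of the windows of Mavs, Tbk1, Irf3 and Adar. For genes in the expression table it occurred in 2.69% of 10625 windows, a share of windows rather than of genes. The plan had been to search only the bases before the start, where Bst2 alone had matches. The search was widened because the matches of Ddx58 and Eif2ak2 lie just after the start. Since the members were chosen by name from this pathway, the share is given for description only. Adar was searched at each of its 3 listed start sites. The 30 bases around each match are given below along the gene's own strand, with the match in capitals, and the matches of Bst2 overlap.
Ddx58: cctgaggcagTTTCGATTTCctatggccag
Eif2ak2: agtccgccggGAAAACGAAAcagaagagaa
Bst2: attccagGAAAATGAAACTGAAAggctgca
The Ddx58 stretch is chr4:40239804-40239833 on the minus strand, and its match, which reads as the motif on the opposite strand, covers bases 3 to 12 after the start. The Eif2ak2 stretch is chr17:78882535-78882564 on the minus strand, with the match at bases 19 to 28 after the start. In Bst2 the stretch is chr8:71537580-71537609 on the minus strand, and its 2 overlapping matches lie upstream, from base -130 to base -115. Of these 3 genes that carry the letters of the motif, Ddx58 was called lower and the others did not pass. A match is a description of letters in a window and says nothing of binding.

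Mavs encodes the adaptor protein on mitochondria that RIG-I and MDA5 both bind. The gene (ENSMUSG00000037523) lies on chromosome 2, 131234063 to 131248025, plus strand. Levels were 762, 746, 691 and 736 units in KO lines 1 to 4, against 580 and 488 units in the WT libraries. All KO lines lay above both WT libraries, and they lay close together, with a mean of 734 ± 30.4 units (SD, n = 4) against 534 ± 65.1 units in WT (SD, n = 2), a ratio of 1.37. The log2 fold change was 0.45 (SE 0.112, 95% interval 0.19 to 0.72, adjusted p = 0.0370, limma). The call depended on the libraries used: it was lost without KO line 1, 2, 3 or 4 and without WT replicate 2, with adjusted p of 0.0795, 0.116, 0.0872, 0.0655 and 0.0975, and it held without WT replicate 1 (adjusted p = 0.0154). It was also lost when libraries were weighted by their spread over all genes (limma's array weights, adjusted p = 0.149). The log2 fold change stayed between 0.33 and 0.57 in those fits.

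Rlf and Pigb had the patterns most like that of Mavs, with root mean square differences of 0.0138 and 0.0318. Rlf, a zinc finger protein gene on chromosome 4, stood at 1912, 1870, 1774 and 1882 units in the KO lines against 1492 and 1242 units in WT. Next to Mavs, 14.5 kb away, Pank2, a pantothenate kinase of coenzyme A synthesis (131262495 to 131299188), was also called higher. It stood at 774, 749, 714 and 748 units in the KO lines against 480 and 502 units in WT (log2 0.59, adjusted p = 0.0120, limma), and its span overlaps that of Rnf24, so reads from the shared stretch could be split. The neighbour on the other side, Ap5s1, did not pass (log2 0.58, adjusted p = 0.145, limma).

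**Figure D3:**
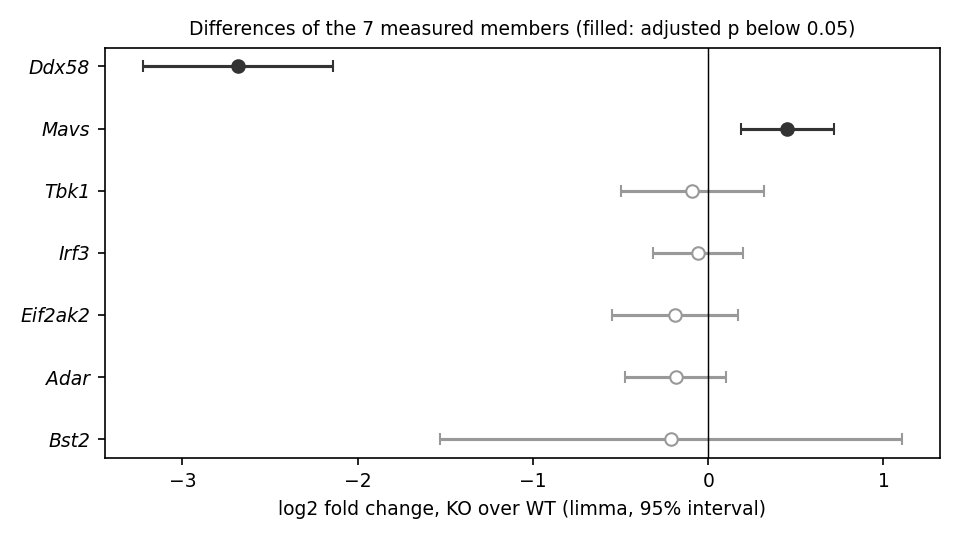
Log2 fold change of each measured member, KO over WT (x axis), with the 95% interval from limma, filled where the adjusted p was below 0.05. Ddx58 lies at -2.68 and Mavs at 0.45, and the intervals of the other 5 members include 0.

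Tbk1 and Irf3, the kinase and the transcription factor below Mavs, did not pass. Tbk1 (ENSMUSG00000020115, chromosome 10, 121546455 to 121586787) stood at 386, 431, 426 and 443 units in the KO lines, against 550 and 366 units in WT. The WT libraries lay on either side of all KO lines, and their ratio of 1.50 exceeded the 1.15 between the highest and lowest KO line. The log2 fold change was -0.09, with a 95% interval of -0.50 to 0.32 (adjusted p = 0.736, limma). Irf3 (ENSMUSG00000003184, chromosome 7, 44997648 to 45002848) stood at 410, 404, 384 and 386 units in the KO lines, against 396 and 432 units in WT. It was the steadiest member, with an SD of log2 levels of 0.0455 among the KO lines, below that of all but 5.89% of genes. Its log2 fold change was -0.06, with an interval of -0.32 to 0.20 (adjusted p = 0.717, limma). For both genes the interval leaves room for moderate differences in either direction. The most alike patterns belonged to Med27, Il1rap and Sec11a for Tbk1 (root mean square differences 0.0385, 0.0403 and 0.0440) and to Hn1, Snrnp200 and Stx12 for Irf3 (0.0152, 0.0207 and 0.0209).

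Eif2ak2 and Adar act on double-stranded RNA itself, and neither passed. Eif2ak2 encodes PKR, a kinase that halts translation when it binds double-stranded RNA, and Adar encodes the enzyme that edits adenosines in such RNA and so keeps the cell's own transcripts from being sensed. Eif2ak2 (ENSMUSG00000024079, chromosome 17, 78852564 to 78882573) stood at 485, 394, 434 and 503 units in the KO lines, against 584 and 459 units in WT. WT replicate 2 lay within the range of the KO lines. Its log2 fold change was -0.19, with a 95% interval of -0.55 to 0.17 (adjusted p = 0.408, limma). Adar (ENSMUSG00000027951, chromosome 3, 89715022 to 89753446) stood at 950, 945, 874 and 838 units in the KO lines, against 920 and 1144 units in WT. Here WT replicate 1 lay within the range of the KO lines. The log2 fold change was -0.19 as well, with an interval of -0.47 to 0.10 (adjusted p = 0.316, limma). Klf13, Nhlrc3 and Arl13b had the patterns most like Eif2ak2 (root mean square differences 0.0514, 0.0519 and 0.0537), and Ube2s, Gm10036 and Ube2z those most like Adar (0.0245, 0.0348 and 0.0359).

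Bst2, the tetherin gene, whose product holds budding virus particles at the cell surface, differed more among the KO lines than between KO and WT. The gene (ENSMUSG00000046718, chromosome 8, 71534255 to 71537456, minus strand) had 113, 196, 210 and 556 units in KO lines 1 to 4, against 360 and 196 units in WT. The highest KO line was 4.92 times the lowest, and both WT values fell inside that range. The SD of its log2 levels among the KO lines, 0.901, was larger than that of 99.1% of genes, where the median gene had 0.145. The log2 fold change was -0.21, with a 95% interval of -1.53 to 1.10 (adjusted p = 0.809, limma), which leaves room for large differences in either direction. Its sign turned without KO line 1 (log2 0.09) and without WT replicate 1 (log2 0.20). The genes of chromosome 8 shifted together between libraries: relative to each gene's own mean, the median over 603 genes was -0.32, 0.22, 0.20 and 0.16 in KO lines 1 to 4 and -0.34 and 0.07 in the WT libraries. The shifts of Bst2 itself were -0.996, -0.27, -0.18 and 1.16 in the KO lines and 0.56 and -0.27 in WT. They were larger in size than those of the chromosome in KO lines 1 and 4, close to them in size but opposite in sign in KO lines 2 and 3, and opposite in sign in both WT libraries. With the median of its chromosome removed, Bst2 had a log2 fold change of -0.41 and did not pass (adjusted p = 0.592, limma). Acap1, Lrp8 and Il17rc, the genes most like it, were only loosely alike (root mean square differences 0.241, 0.257 and 0.271).

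**Figure D4:**
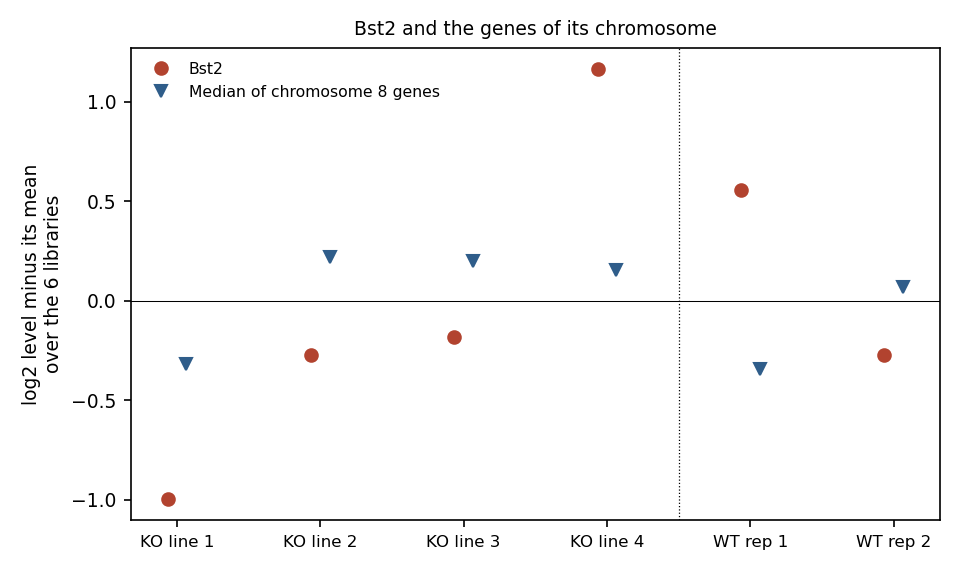
Log2 level of Bst2 and the median over the 603 genes of chromosome 8, each relative to its own mean over the 6 libraries (y axis), in KO lines 1 to 4 and WT replicates 1 and 2 (x axis). Bst2 runs from -0.996 in KO line 1 to 1.16 in KO line 4, while the chromosome stays between -0.34 and 0.22.

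The genes around the members were read from lists chosen with earlier results of these data known, and are described by counts and medians. The counts stand against 17.1% of all genes called, 9.75% higher and 7.34% lower. These are shares of the main fit, where 1878 of 10989 genes were called. Without KO line 1, 2, 3 or 4 limma called 1223, 472, 572 or 1445 of all genes, and with array weights 382. Without a WT replicate the count over all genes moved too. Counts of a list in such fits are read against these. No share of all genes was worked out at an unadjusted p below 0.05 in limma. It lies above 17.1%, so counts at that level show no lean of a list. Among RNA sensors and their regulators, 14 of 20 listed symbols were measured, of which 1 was called higher, 2 lower and 11 did not pass, with a median log2 fold change of -0.01. Beside Ddx58, the lower gene was Ddx3x, a DEAD-box helicase that takes part in Mavs and Tbk1 signalling as well as in translation, and which has close copies among which reads can be split. It stood at 15988, 14340, 14340 and 20656 units in the KO lines against 36416 and 29806 units in WT, where the scale is compressed into a few steps (log2 -1.03, adjusted p = 0.0118, limma). Zc3hav1, which encodes the antiviral zinc finger protein ZAP, was the gene called higher, at 1872, 1671, 1568 and 1184 units in the KO lines against 952 and 926 units in WT (log2 0.72, adjusted p = 0.0370, limma). Its call was lost without KO line 1, 2 or 3 and without either WT replicate (adjusted p up to 0.115), with the medians of its chromosome, number 6, removed (adjusted p = 0.208), and with array weights (adjusted p = 0.102). Without WT replicate 1, 5 genes of this list were called, 2 higher and 3 lower.

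Among adaptors, kinases and interferon regulatory factors, 17 of 25 listed symbols were measured, with Mavs called higher, 2 lower and 14 not passing (median log2 -0.15). The share of all genes called was 17.1%. Irf9, the DNA-binding subunit of the complex that interferon activates, stood at 252, 236, 202 and 170 units in the KO lines against 384 and 455 units in WT (log2 -0.93, adjusted p = 0.0201, limma). Chuk, a kinase of the NF-kB pathway also called IKK alpha, stood at 792, 732, 709 and 755 units in the KO lines against 1036 and 1108 units in WT (log2 -0.51, adjusted p = 0.0179, limma). The call of Irf9 was lost without KO line 2, KO line 3 or WT replicate 2 (adjusted p up to 0.0714), and that of Chuk without KO line 2 or KO line 3 (adjusted p up to 0.0714). Without KO line 2 or KO line 3 limma called only 472 or 572 of all 10989 genes. It called no gene of this list in these fits, and 5 or 6 had an unadjusted p below 0.05. It called 1 gene without WT replicate 2 and 5 without WT replicate 1. With array weights it called none of the 17, and 5 had an unadjusted p below 0.05, where 382 of all 10989 genes were called.

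Interferon receptors and JAK-STAT genes were called in both directions. Of 17 measured among 22 listed symbols, 2 were higher, 4 lower and 11 did not pass, against 17.1% of all genes called. The median log2 fold change was 0.05. Stat2, the partner of Irf9 in the complex named above, moved the opposite way to it. It stood at 469, 590, 524 and 917 units in the KO lines against 268 and 136 units in WT, a ratio of 3.09 (log2 1.58, adjusted p = 0.0224, limma).

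Ifngr2, a chain of the interferon gamma receptor, stood at 138, 82, 72 and 53 units in the KO lines against 224 and 208 units in WT (log2 -1.26, adjusted p = 0.0429, limma). Stat3, which carries the signal of leukemia inhibitory factor, and the phosphatase Ptpn11 were the other called lower genes beside Irf9, with log2 fold changes of -0.65 and -0.48. The phosphatase Ptpn6 was called higher (log2 0.57). Dropping 1 library at a time ended the calls of Stat2, Ifngr2, Stat3, Ptpn11 and Ptpn6 in 3, 5, 4, 4 and 6 of 6 fits, where the highest adjusted p were 0.0906, 0.110, 0.0893, 0.0939 and 0.111. That of Ptpn6 was also lost with the medians of its chromosome, number 6, removed (adjusted p = 0.0616). Without KO line 2 or KO line 3 limma called only 472 or 572 of all 10989 genes. It called no gene of this list in these fits, with 8 at an unadjusted p below 0.05 in each case. With KO line 1 dropped it called 3 genes, and with WT replicate 2 dropped it called 2. All 6 calls of this list were lost with array weights, where 6 genes had an unadjusted p below 0.05.

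Of the genes that bind or edit double-stranded RNA, 21 were measured among 26 listed symbols. None was called higher, 2 were called lower and 19 did not pass (median log2 -0.03), against 7.34% of all genes called lower and 9.75% called higher. Some of those that did not pass lay far from 0, among them Adad1 and Adad2, relatives of the editing enzymes known from the testis (log2 1.89 and 1.72, adjusted p = 0.0774 and 0.0718, limma). Adad1 stood at 43, 114, 120 and 140 units in the KO lines against 43 and 1 units in WT. Adad2 stood at 48, 92, 136 and 94 units against 3 and 40 units. A WT library near 0 thus weighs on each. With a library left out, Adad1 ranged from log2 0.95 to 2.83 and Adad2 from 0.90 to 2.53. Of this list, 3 genes were higher at an unadjusted p below 0.05 in limma. Dhx9, a helicase that unwinds double-stranded RNA, stood at 9702, 9114, 9114 and 9114 units in the KO lines against 14395 and 12228 units in WT (log2 -0.52, adjusted p = 0.0131, limma). The equal values of KO lines 2, 3 and 4 are ties of the scale, which can narrow the spread behind that p. Such ties occur lower on the scale too, with Eif2s1 at 4304 units in every KO line. Dgcr8, the partner of Drosha in microRNA processing, stood at 1019, 1016, 1012 and 860 units in the KO lines against 1412 and 1367 units in WT (log2 -0.51, adjusted p = 0.0241, limma). Both calls were lost without KO line 2 and without KO line 3, and that of Dgcr8 also without WT replicate 2 (adjusted p up to 0.0549 for Dhx9 and 0.0748 for Dgcr8). With array weights Dhx9 alone was called (adjusted p = 0.0457 for Dhx9 and 0.116 for Dgcr8). Without WT replicate 1, 5 genes of this list were called, 2 higher and 3 lower.

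**Figure D5:**
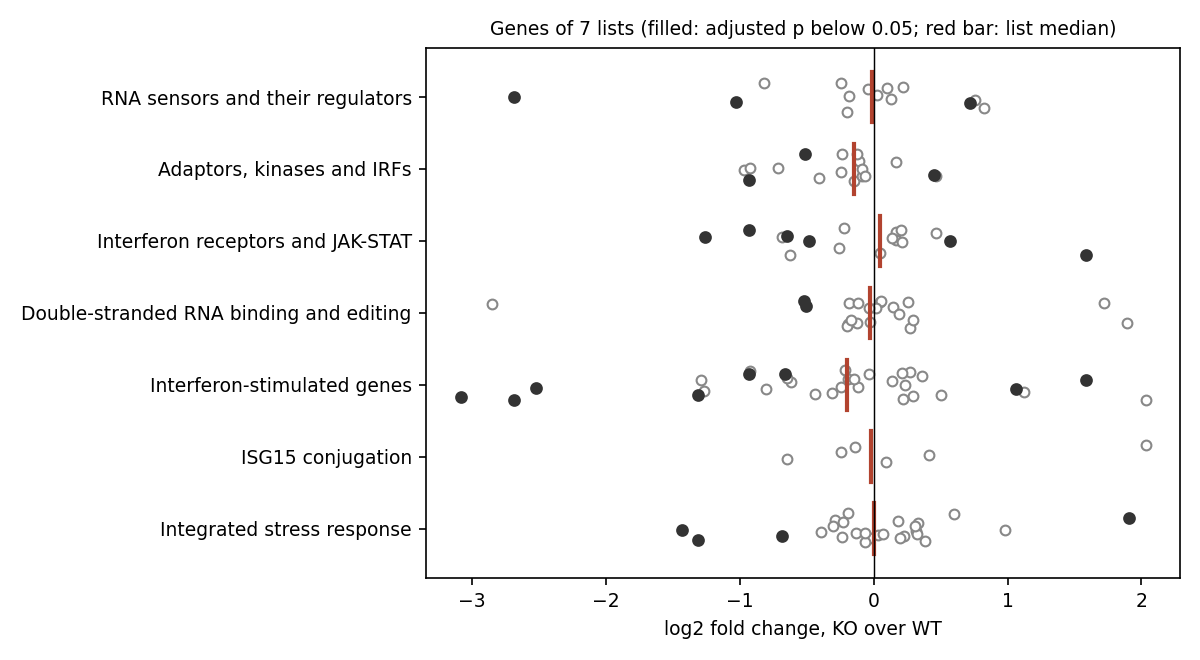
Log2 fold change, KO over WT (x axis), of each measured gene in 7 lists (rows), filled where the adjusted p was below 0.05, with a red bar at the list's median. The medians lie between -0.20 for interferon-stimulated genes and 0.05 for interferon receptors and JAK-STAT genes, and called genes lie on both sides of 0 in 5 of the lists.

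Interferon-stimulated genes were called in both directions, more of them lower than higher. Of 32 measured among 66 listed symbols, 2 were called higher, 6 lower and 24 did not pass. The shares over all genes were 9.75% called higher and 7.34% called lower. At an unadjusted p below 0.05 in limma, 4 genes of the list were higher and 12 lower. The share of all genes at that level was not worked out. It lies above the 17.1% called, so these counts show no lean of the list. The median log2 fold change was -0.20 against 0.04 over all genes. Beside Ddx58, the largest falls were those of Lgals3bp, a secreted galectin-binding glycoprotein, and Irgm1, a GTPase induced by interferon gamma. Lgals3bp stood at 13, 10, 18 and 10 units in the KO lines against 272 and 172 units in WT (log2 -3.08, adjusted p = 0.00535, limma). Irgm1 stood at 18, 8, 12 and 14 units in the KO lines against 138 and 148 units in WT (log2 -2.52, adjusted p = 0.00859, limma). The KO levels of both lay near or below the 14.7 units that the pseudocount equals, so these log2 values are shrunk. In deposited units the WT mean was 17.4 times the KO mean for Lgals3bp and 11 times for Irgm1. H2-D1, a classical class I histocompatibility gene with closely related copies among which reads can be split, stood at 176, 240, 220 and 322 units in the KO lines against 635 and 571 units in WT (log2 -1.31, adjusted p = 0.0133, limma). These 3 calls held whichever of the 6 libraries was dropped, but with array weights those of Irgm1 and H2-D1 were lost (adjusted p = 0.0512 and 0.0523) and that of Lgals3bp held (adjusted p = 0.0356). Psme2, a subunit of a proteasome activator, and Irf9 were the other genes called lower, with Psme2 at a log2 fold change of -0.66 (call lost without KO line 2, KO line 3 or WT replicate 2, adjusted p up to 0.0743). Without KO line 2 or KO line 3, 5 genes of this list were called in place of 8. The count over all genes fell to 472 and 572 in these fits, from 1878. With array weights 2 were called, Ddx58 and Lgals3bp, both lower.

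The 2 interferon-stimulated genes called higher were Pml and Stat2. Pml, which builds the nuclear bodies named after it, stood at 3912, 3068, 3008 and 3803 units in the KO lines against 1848 and 1434 units in WT, a ratio of 2.10 (log2 1.07, adjusted p = 0.00912, limma). Its call held whichever of the 6 libraries was dropped, and was lost with array weights (adjusted p = 0.0584), as was that of Stat2 (adjusted p = 0.0671). The mean of the feeder fibroblast markers described above was lower in every KO line, as were Ddx58, Lgals3bp, Irgm1 and H2-D1. Within WT, the feeder mean, Ddx58, Lgals3bp and H2-D1 were higher in replicate 1, and Irgm1 in replicate 2. Within KO, line 1 was the highest for the feeder mean, Ddx58 and Irgm1, line 3 for Lgals3bp and line 4 for H2-D1. H2-D1 was lowest in line 1. The part of feeder cells in these differences was not tested. Of 10 markers of macrophages and other white blood cells, 2 were measured, Cd68 and Laptm5, and neither passed (log2 -1.40 and -0.11, adjusted p = 0.0534 and 0.614, limma).

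The enzymes that attach and remove ISG15 showed no called gene. Of 6 measured among 10 listed symbols none passed, and 1 had an unadjusted p below 0.05 in limma (median log2 -0.02). That gene was Herc6, the ISG15 ligase of the mouse, listed at 214, 119, 187 and 142 units in the KO lines against 112 and 0 units in WT (log2 2.03, adjusted p = 0.108, limma). Without WT replicate 1, the library at 0 was the sole WT sample, and 2 genes of this list were called higher.

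Downstream of Eif2ak2 lies the integrated stress response, which 3 further kinases also feed. Of 26 measured among 27 listed symbols, 1 was called higher, 3 lower and 22 did not pass, against 17.1% of all genes called. The median log2 fold change was 0.00. The kinases Eif2ak1, Eif2ak3 and Eif2ak4 did not pass (log2 -0.03, -0.24 and 0.23), nor did the central transcription factor Atf4 (log2 -0.23, adjusted p = 0.304, limma). Ddit4, an inhibitor of mTOR that hypoxia also induces, stood at 2690, 3190, 3046 and 4456 units in the KO lines against 745 and 1008 units in WT (log2 1.90, adjusted p = 0.00495, limma). Ppp1r15a, the phosphatase subunit that reverses the response, stood at 702, 783, 719 and 778 units in the KO lines against 1210 and 1198 units in WT (log2 -0.68, adjusted p = 0.00828, limma). Both calls held whichever of the 6 libraries was dropped. With array weights that of Ddit4 held (adjusted p = 0.0191) and that of Ppp1r15a was lost (adjusted p = 0.0559). The cystine transporter Slc7a11 and the transcription factor Atf3 were also called lower (log2 -1.43 and -1.31), and lost the call when 1 library was dropped in 5 and 6 of 6 cases (highest adjusted p 0.128 and 0.120). Without KO line 1, 2 or 3 or either WT replicate, 2 genes of this list were called, 1 in each direction, and with array weights Ddit4 alone.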

How the data were processed

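RNA sequencing of 4 KO lines and 2 WT libraries was analysed from 1 table of 10989 genes. Bowtie2 2.2.0, RSEM 1.2.17 and the genome build mm10 appear in the submitters' processing notes; what each did, and the annotation, normalization and filters, is not given in the sources used here. Deposited values, named CPM by the authors, are whole numbers with nearly equal totals and were treated as a normalized score; no counts can be recovered, so depth is unknown and there are no counting intervals. The test had been written for CPM and was kept on this scale.

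Values were divided by 14.7 (the mean total over 1000000), and log2 was taken after adding 1. Genes needed a scaled value of 1 in 2 libraries, and all genes reached it. The comparison of KO with WT used limma 3.58.1 in R 4.3.3 (lmFit, then eBayes with its mean-variance trend; two-sided tests, 4 residual degrees of freedom, no covariate), with Benjamini-Hochberg adjustment over all genes. The procedure was tested on simulated data with normal noise of the same SD for every gene. Those data lacked the ties, chromosome shifts and outlying WT library seen here, so the test does not bear on these limits. Positions are from GENCODE M21 (mm10), and promoters from RefSeq (GRCm38.p6). Promoter windows were searched whole, including the bases after the start, a change from the plan made once the matches were known.

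Named genes were all measured members, Ddx5, up to 4 called genes per direction in each list (or the gene with the smallest p where none was called), and the 3 genes most like each member; 1 of these, for Mavs, is not reported here. Members and lists were chosen with earlier results of these data known. Alternatives were other pseudocounts, filters, scalings (unweighted trimmed mean, quantile) and variance models, removal of chromosome medians, a replicate block, and each library left out.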

Additional observations from a re-analysis of the deposited data

Results flagged for a closer look

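Ddx58 in KO line 1, at 200 units, stood far from the other 3 KO lines, which lay at 123, 128 and 134 units. Its gap to the nearest line was 0.857 of the whole range of the 4 lines. This was 1 flag among the 7 members looked at, and chance flags about 1 in 20 groups. Without KO line 1 the log2 fold change of Ddx58 was -2.83 (adjusted p = 0.00674, limma).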

How the results depend on the processing

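Ddx58 remained lower in each of 16 alternatives (log2 -2.92 to -2.31) and was called in 15 of them. The call was lost with a replicate block, that is the number shared by KO lines and WT replicates as a term (limma adjusted p = 0.0523). With this term the difference rests on KO lines 1 and 2 against the 2 WT libraries, with 1 residual degree of freedom. KO lines whose number no WT replicate shares do not enter the difference, so few calls can be made in that fit. Mavs remained higher in each of 16 (log2 0.33 to 0.57) and was called in 9. Irf3, Eif2ak2, Adar, Tbk1 and Bst2 were called in none of the 16 (limma adjusted p down to 0.0763, for Adar). With a library left out, Tbk1 lay between log2 -0.37 and 0.19 and changed sign without WT replicate 1 (0.19), and Bst2 lay between -0.63 and 0.20 and changed sign without WT replicate 1 (0.20) and without KO line 1 (0.09); the cause was not tested. Of the members, 1 was called with array weights, 0 with the replicate block (limma; 2 at an unadjusted p below 0.05), and 1 to 2 with a library left out. Of the other list genes named, with the replicate block Ddit4 alone remained called (adjusted p = 0.0475), and the calls of Ddx3x, Lgals3bp, Irgm1, H2-D1, Pml and Ppp1r15a, which held with each library left out, were lost (adjusted p = 0.0529, 0.101, 0.140, 0.0836, 0.0586 and 0.123). Over all genes 1878 were called, against 382 with array weights, 20 with the replicate block, and 472 (without KO line 2) to 3304 (without WT replicate 1) with a library left out. Other counts were 1223 without KO line 1 and 572 without KO line 3. Numbers 1 and 2 name cloned lines in KO and replicates in WT, so same-numbered libraries were not taken as pairs. They deviated together only weakly (r = 0.145 and 0.0970 across 10989 genes, which are not independent). The deviations of the 2 WT libraries mirror each other, so these are not 2 separate checks. Depth is unknown, and with 2 WT libraries only large or steady differences can be called.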

Other observations

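Some genes of class I antigen presentation were picked from the interferon-stimulated list after their values were seen, and none of those given here passed the test. B2m, the light chain of class I molecules, stood at 236, 290, 319 and 320 units in the KO lines against 1323 and 386 units in WT (log2 -1.27, adjusted p = 0.0823, limma). Tapbp, which loads peptides onto these molecules, stood at 371, 300, 268 and 406 units in the KO lines against 764 and 454 units in WT (log2 -0.80, adjusted p = 0.0652, limma). The peptide transporter gene Tap1 lay the other way, at 82, 90, 108 and 31 units in the KO lines against 46 and 47 units in WT (log2 0.50, adjusted p = 0.442, limma). H2-K1, a classical class I gene with close copies among which reads can be split, overlapped between the groups, at 180, 308, 194 and 478 units in the KO lines against 252 and 356 units in WT (log2 -0.15, adjusted p = 0.807, limma). The interferon-induced membrane protein genes Ifitm1, Ifitm2 and Ifitm3 overlapped between the groups, and KO line 1 was the highest and KO line 4 the lowest of the KO lines for each of the 3.

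Adarb2, an editing enzyme relative known from the brain, was listed at 92, 84, 100 and 72 units in the KO lines against 89 and 5144 units in WT replicates 1 and 2 (log2 -2.85, adjusted p = 0.166, limma). A single WT library thus carried a level far above all others, in the library that also had the most genes at 0 units. Oas1a, an enzyme activated by double-stranded RNA that has closely related copies among which reads can be split, stood at 714, 642, 480 and 274 units in the KO lines against 960 and 300 units in WT (log2 -0.12, adjusted p = 0.893, limma).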
